A study of Mus musculus with 6 samples.

Results

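The genes described here are 10 transcriptional targets of the tumour suppressor p53: Pmaip1, Bbc3, Bax, Mdm2, Ccng1, Zmat3, Gadd45a, Gadd45b, Sesn1 and Trp53inp1. They were chosen by gene symbol from a table of raw counts with 22966 genes, and all 10 were found and passed the filter on low counts. The table holds 6 libraries made from hepatic stellate cells isolated from mouse liver, the retinoid-storing pericytes of the liver that become matrix-producing myofibroblasts after injury. The 3 libraries titled flox and the 3 titled Cre all carry the genotype entry BucheHep and an entry for treatment with CCl4 (carbon tetrachloride), a hepatotoxin used to induce liver fibrosis. The series describes mice that lack butyrylcholinesterase in hepatocytes, so the groups differ by title alone: flox is read as the floxed control and Cre as the hepatocyte deletion. The sources used here do not give the Cre driver, the dose and duration of CCl4, the age and sex of the mice, any pooling of animals or a sort of the cells. Nothing says that the libraries came from separate animals, so the p-values cover only the variation among these 6 libraries, and that variation may be technical.

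p53 is a transcription factor that the ligase Mdm2 keeps scarce in unstressed cells. DNA damage, activated oncogenes and other stresses free it from Mdm2, and it then binds paired decamers in its target genes and raises genes of cell cycle arrest, repair, metabolic restraint and apoptosis, together with Mdm2 itself, which closes a feedback loop. Several of these targets also answer to other factors: Gadd45a, Gadd45b, Sesn1 and Pmaip1 can be raised without p53 by stress kinases, FoxO factors, NF-κB or the integrated stress response. In the injured liver, p53 activity in stellate cells is known for its link to senescence, a state that limits scar formation.

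Totals ran from 37273142 to 41006722 counts per library. The libraries did not hold stellate RNA alone. Summed over 20 macrophage and Kupffer cell markers, normalised CPM (counts scaled to library size and TMM composition factors) ran from 9059 to 24974 in flox and from 2921 to 3758 in Cre, with 0 of the 20 markers at 0 in every library. In this list 18 of 20 genes fell in Cre and 0 rose, against 8.94% and 6.35% of all tested genes. Summed over 22 stellate markers, CPM was 3484, 2018 and 1516 in flox 1, 2 and 3. It was 2770, 3620 and 4228 in the Cre libraries, above the macrophage sum in Cre 2 and Cre 3 only. Of these 22 genes 5 rose and 0 fell (median log2 fold change 0.47), a share of 22.7% against 6.35% of all tested genes. Per length, the macrophage receptor Adgre1 stood at 293 ± 73.0 FPKM in flox and 82.4 ± 21.8 FPKM in Cre (SD, n = 3), against 7.79 ± 2.71 and 12.6 ± 7.85 FPKM for the mesenchymal PDGF receptor gene Pdgfrb and 0.288 ± 0.230 and 0.129 ± 0.0876 FPKM for Lrat, the retinol-esterifying enzyme of quiescent stellate cells, whose Cre mean was the lower one, unlike the median of its list. In bulk RNA, fewer cells of a type and less RNA per cell cannot be told apart. The flox 3 library stood apart from its group: its counts differed from flox 1 and 2 by a chi-square per gene of 235 and 327 and from the Cre libraries by 142 to 178.

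The promoter sequences are shown first, since the members were chosen as targets of p53 and these are the windows in which its motif could be searched. RefSeq promoter windows of GRCm38.p6, from 250 bases before to 50 after a transcription start, were matched by symbol for 7 of the 10 members with 10 windows; Pmaip1, Zmat3 and Trp53inp1 had none in the table. The motif searched was the p53 site of 20 bases: a pair of decamers with no spacer, each made of 3 purines, a C, 2 letters that are A or T, a G and 3 pyrimidines. The C and G of both decamers were required and mismatches were counted at the other positions. The motif is its own reverse complement, so a search of either strand covers both. Capitals mark the best match in 4 windows, with 20 bases on each side.
Ccng1: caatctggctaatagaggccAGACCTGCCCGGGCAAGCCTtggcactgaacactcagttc
Bbc3: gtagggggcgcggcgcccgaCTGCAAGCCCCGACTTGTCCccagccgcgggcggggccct
Sesn1: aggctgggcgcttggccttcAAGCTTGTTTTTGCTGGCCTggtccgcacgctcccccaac
Cdkn1a: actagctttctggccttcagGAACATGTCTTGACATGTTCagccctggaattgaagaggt
The Ccng1 stretch (chr11:40755442-40755501, minus strand) held a match with 1 mismatch that began at -195 from the start. The Bbc3 stretch (chr7:16309466-16309525, plus strand) held one with 3 mismatches at -97, and the second start of Sesn1 (chr10:41887246-41887305, plus strand) one with 3 at -173. The best match at the other starts of the 7 members had 7 mismatches or more. Of all 32851 windows, 0.067% held a match with at most 1 mismatch and 1.38% one with at most 3. Cdkn1a, which encodes the cyclin-dependent kinase inhibitor p21 and is not among the 10 members, is shown because it is the best known p53 target: a start of this gene (chr17:29090908-29090967, plus strand) held a match with 1 mismatch at -51. These matches are letters in a window, not measured binding. The p53 sites long described for Mdm2 and Gadd45a lie in introns, outside these windows.

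The window of Gadd45a held no p53 match with fewer than 12 mismatches but 2 octamers (ATGCAAAT or its reverse complement ATTTGCAT, the sequence bound by POU-domain factors such as Oct-1, both strands searched, no overlap with the p53 motif counted). It is shown because Gadd45a fell while its relative Gadd45b did not pass the test. The octamer was searched only after these values were seen. The 150 bases before its start (chr6:67037408-67037557, minus strand), with the octamers in capitals, read as follows.
Gadd45a: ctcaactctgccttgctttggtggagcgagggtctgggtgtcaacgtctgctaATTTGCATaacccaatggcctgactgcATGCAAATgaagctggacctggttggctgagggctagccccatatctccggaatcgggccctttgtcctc
Of the 32851 windows, 1.74% held at least 1 octamer and 0.107% at least 2. None of the other 9 member windows held one, those of Sesn1, which also fell, included. A link between the octamers and the fall of Gadd45a was not tested.

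Of the 10 p53 targets, 3 were lower in the Cre libraries and 0 were higher. Pmaip1, an apoptosis activator, fell 3.67-fold, Gadd45a, a damage-inducible growth arrest gene, 2.11-fold and Sesn1, a stress sensor that restrains mTORC1, 4.33-fold. The other 7 did not pass the test, among them Mdm2, Bax and Ccng1, which report p53 activity in many tissues. Across the 14795 genes tested with edgeR's quasi-likelihood test at an adjusted p below 0.05, 8.94% were lower and 6.35% higher, and the median log2 fold change (Cre over flox) was 0.01, against -0.13 over the 10 members. The libraries of the groups stood apart for the same 3 members, with Cre below flox each time, an arrangement found for 20.0% of the tested genes. In 0 members did every Cre library lie above every flox library, as in 19.6% of the tested genes. At an unadjusted p below 0.05 the members that passed were again 3, where 5150 of the 14795 tested genes passed. DESeq2 called 3 members lower and 0 higher. Over all tested genes it called 2358 lower and 1976 higher, 29.3% in either direction. Leaving out flox 1, flox 2, Cre 1 or Cre 2 ended every call in the table: the adjusted p then ran from 0.0644 to 0.105 for Pmaip1, from 0.0644 to 0.107 for Gadd45a and from 0.085 to 0.118 for Sesn1, which also missed at 0.0719 without Cre 3. Without flox 3 all 3 passed, at log2 fold changes of -1.98, -0.93 and -2.47.

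**Figure D1:**
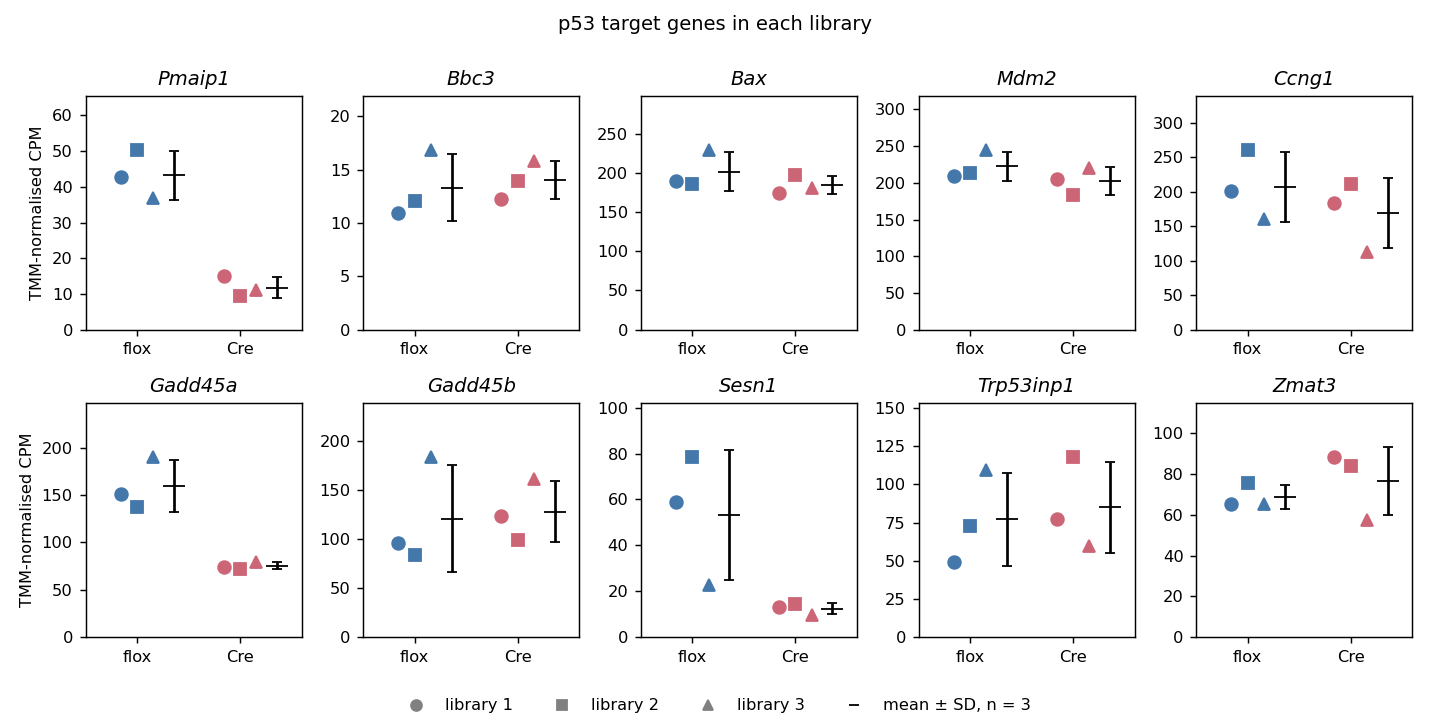
Normalised CPM (TMM-scaled, linear axes from 0, a separate scale for each gene) of the 10 p53 targets in the 3 flox (blue) and 3 Cre (red) libraries, with the mean and SD of each group (n = 3) as black bars. Pmaip1, Gadd45a and Sesn1 have every Cre library below every flox library, and the groups overlap for the other 7 genes.

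Among the apoptosis genes, Pmaip1 fell and the other 2 did not pass the test. Pmaip1 (chromosome 18, 66458533 to 66465565 in GRCm38) encodes Noxa, a BH3-only protein that neutralises the survival factor Mcl1. It stood at 42.6, 50.4 and 36.7 CPM in flox 1, 2 and 3 and at 15.04, 9.31 and 10.98 CPM in Cre 1, 2 and 3. Every Cre library lay below every flox library, and the lowest flox value, in flox 3, was far above the highest Cre value. The means were 43.3 ± 6.86 and 11.8 ± 2.94 CPM (SD, n = 3), and the log2 fold change was -1.88 ± 0.22 (standard error, edgeR adjusted p = 0.0234).

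Bbc3 (chromosome 7, 16308393 to 16318205) encodes Puma, the BH3-only protein that binds all survival members of the BCL-2 family and whose promoter stretch is printed above. It stood at 10.9, 12.1 and 16.9 CPM in flox 1, 2 and 3 and at 12.3, 13.9 and 15.8 CPM in Cre 1, 2 and 3. The groups overlapped over nearly their whole range, with flox 3 the highest library of all. On the log2 scale the difference was 0.07 ± 0.21 (edgeR adjusted p = 0.833), with a 95% interval from -0.43 to 0.58.

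Bax (chromosome 7, 45461697 to 45466898) encodes the pore-forming effector of mitochondrial apoptosis, and its exons overlap those of the predicted gene Gm45808. It stood at 190, 185 and 230 CPM in flox 1, 2 and 3 and at 175, 198 and 181 CPM in Cre 1, 2 and 3. All but flox 3 lay within a narrow band in which the groups overlapped. The log2 fold change was -0.13 ± 0.12 (edgeR adjusted p = 0.483, 95% interval -0.42 to 0.16), and scaling to library totals put it at 0.02, so its direction rests on the scaling.

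The genes of the p53 feedback loop did not pass the test. Mdm2 (chromosome 10, 117688875 to 117710758), the ligase that degrades p53, stood at 209.8, 213 and 245 CPM in flox 1, 2 and 3 and at 205, 183 and 221 CPM in Cre 1, 2 and 3. Its libraries lay close together and the groups overlapped. The log2 fold change was -0.13 ± 0.12 (edgeR adjusted p = 0.460, 95% interval -0.42 to 0.15) and 0.02 with library totals.

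Ccng1 (chromosome 11, 40748552 to 40755311) encodes cyclin G1, which recruits a phosphatase to Mdm2 and carries the closest p53 match of the windows printed above for the members. It stood at 201, 261 and 160.1 CPM in flox 1, 2 and 3 and at 183, 211 and 113 CPM in Cre 1, 2 and 3. The third library was the lowest in both groups, and the groups overlapped. The difference on the log2 scale was -0.29 ± 0.27 (edgeR adjusted p = 0.477), with a 95% interval from -0.95 to 0.36.

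Of the paired GADD45 genes, Gadd45a fell and Gadd45b did not pass. Both encode small proteins that bind PCNA and cyclin B1-Cdk1 and act on the p38 and JNK pathways. Gadd45a (chromosome 6, 67035096 to 67037457, overlapped on the opposite strand by exons of E230016M11Rik) stood at 151, 138 and 189.9 CPM in flox 1, 2 and 3. In Cre 1, 2 and 3 it stood at 74.6, 72.3 and 79.8 CPM, a band so tight that its coefficient of variation was 5.09%, against a median of 13.8% over all tested genes. Every Cre library lay below every flox library. The means were 159.5 ± 27.1 and 75.6 ± 3.85 CPM (SD, n = 3), and the log2 fold change was -1.08 ± 0.14 (edgeR adjusted p = 0.0237).

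Gadd45b (chromosome 10, 80930073 to 80932204), the relative that NF-κB and TGF-beta signalling also raise, stood at 95.8, 83.6 and 184 CPM in flox 1, 2 and 3 and at 124, 99.7 and 161 CPM in Cre 1, 2 and 3. Flox 3 was the highest library and flox 2 the lowest, so the Cre libraries all fell inside the flox range. The log2 fold change was 0.08 ± 0.33 (edgeR adjusted p = 0.881, 95% interval -0.71 to 0.87). It was -0.12 without flox 2 and 0.52 without flox 3, so single libraries set its sign.

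Among the stress and metabolic regulators, Sesn1 fell and Trp53inp1 did not pass the test. Sesn1 (chromosome 10, 41809935 to 41908424) encodes sestrin 1, which binds GATOR2 and holds mTORC1 in check. It stood at 59.1, 78.4 and 22.7 CPM in flox 1, 2 and 3 and at 13.01, 14.3 and 9.66 CPM in Cre 1, 2 and 3. The groups did not overlap, but flox 3 lay nearer to the Cre libraries than to the other flox libraries, and the flox coefficient of variation, 52.97%, was the largest of any member in either group. The means were 53.4 ± 28.3 and 12.3 ± 2.41 CPM (SD, n = 3), and the log2 fold change was -2.11 ± 0.44 (edgeR adjusted p = 0.0305). In limma-voom it did not pass (log2 fold change -1.94, adjusted p = 0.07). Without flox 3 it was -2.47 (edgeR adjusted p = 9.44e-04).

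Trp53inp1 (chromosome 4, 11156431 to 11174379) encodes a nuclear protein that promotes p53 phosphorylation and takes part in autophagy. It stood at 49.2, 72.9 and 109 CPM in flox 1, 2 and 3 and at 77.0, 118 and 59.8 CPM in Cre 1, 2 and 3. The groups overlapped throughout, with Cre 2 and flox 3 highest. The log2 fold change was 0.14 ± 0.35 (edgeR adjusted p = 0.812, 95% interval -0.70 to 0.97). Summed over 15 endothelial markers, the flox libraries held 3018, 2439 and 6570 CPM and the Cre libraries 3095, 5485 and 3632 CPM. Flox 3 and Cre 2 were the 2 highest libraries there as well, but the order of the other libraries differed. The lowest was flox 2 for the endothelial sum and flox 1 for Trp53inp1. Cre 1 lay below Cre 3 for the endothelial sum and above it for Trp53inp1. The part of endothelial RNA in the values of Trp53inp1 was not tested.

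Zmat3 (chromosome 3, 32334792 to 32366014), a zinc finger protein that binds RNA and changes splicing and mRNA stability downstream of p53, stood at 65.2, 75.6 and 65.2 CPM in flox 1, 2 and 3 and at 88.2, 84.0 and 57.6 CPM in Cre 1, 2 and 3. Cre 1 and Cre 2 lay above every flox library and Cre 3 below every one. The log2 fold change was 0.16 ± 0.18 (edgeR adjusted p = 0.558, 95% interval -0.27 to 0.58). Summed over 11 mesothelial markers, CPM was 834 and 980 in Cre 1 and Cre 2, 341 in Cre 3 and 219 to 365 in flox, and the part of mesothelial RNA in the values of Zmat3 was not tested.

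**Figure D2:**
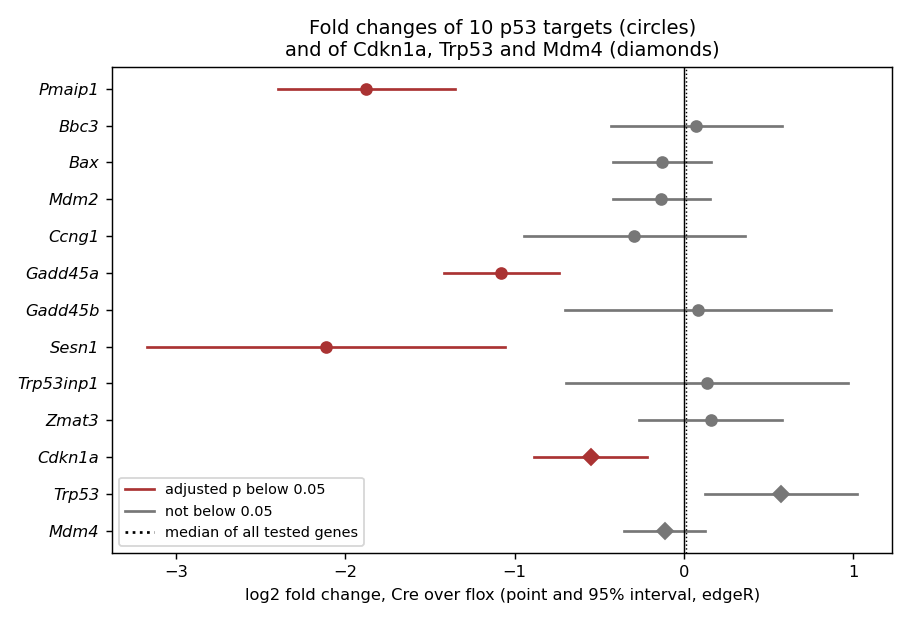
Log2 fold change (Cre over flox, horizontal axis) of the 10 p53 targets and of Cdkn1a, Trp53 and Mdm4, with 95% intervals from edgeR (3 libraries per group). Red marks an adjusted p below 0.05: the intervals of Pmaip1, Gadd45a and Sesn1 lie wholly below 0, and those of the other 7 members cross 0. Cdkn1a is also red and below 0. The intervals are not adjusted for the number of genes tested, so that of Trp53 lies above 0 although its edgeR adjusted p is 0.0842 (grey).

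Set beside each other per length, in the deposited FPKM, the members spanned a wide range of levels, and the 3 that fell moved down the order. In flox, Bax stood highest at 200.6 ± 36.2 FPKM, followed by Gadd45a at 124 ± 28.6, Gadd45b at 92.2 ± 47.3, Ccng1 at 57.0 ± 11.1 and Mdm2 at 28.5 ± 4.18 FPKM (SD, n = 3). Pmaip1, Sesn1, Trp53inp1 and Zmat3 followed at 15.4 ± 1.66, 14.9 ± 7.33, 13.6 ± 6.08 and 7.99 ± 0.491 FPKM, and Bbc3 came last at 4.23 ± 1.25 FPKM. Neighbours from Gadd45a to Ccng1 and from Pmaip1 to Zmat3 overlapped in their libraries, while Bax, Mdm2 and Bbc3 stood apart from the neighbour above or below. In Cre, Bax stood at 203 ± 12.9, Gadd45b at 107 ± 24.6, Gadd45a at 65.2 ± 2.60, Ccng1 at 52.4 ± 16.2 and Mdm2 at 28.9 ± 2.50 FPKM. Trp53inp1 and Zmat3 followed at 16.5 ± 5.86 and 9.99 ± 2.30 FPKM, and Bbc3, Pmaip1 and Sesn1 came last at 4.91 ± 0.546, 4.70 ± 1.23 and 3.91 ± 0.804 FPKM, with overlapping libraries.

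Ratios of FPKM within a library do not depend on how libraries are scaled, and 3 pairs of related genes were compared that way, chosen after their values were seen. Gadd45a over Gadd45b was 1.63, 1.71 and 1.07 in flox 1, 2 and 3, against 0.623, 0.750 and 0.512 in the Cre libraries. Gadd45a was thus the more abundant of the pair in every flox library and the less abundant in every Cre library. Pmaip1 over Bbc3 was 4.41, 4.72 and 2.47 in the flox libraries and 1.39, 0.760 and 0.785 in the Cre libraries. Pmaip1 was thus above Bbc3 in every flox library and in Cre 1, and below it in Cre 2 and Cre 3. Sesn1 over Sesn2, its relative that p53 and ATF4 both raise, was 1.001, 1.17 and 0.345 in flox and 0.229, 0.242 and 0.191 in Cre, again without overlap. The mean log2 ratio differed by -1.21, -1.99 and -1.75 between Cre and flox. Each had a two-sided exact permutation p of 0.1, the smallest that 3 libraries against 3 allow. Each pair was picked to set a member that fell against a relative that did not pass, so this p adds no evidence.

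None of the upstream genes of p53 named next fell in edgeR. Trp53 itself, which encodes p53, stood at 104, 97.5 and 149 CPM in flox 1, 2 and 3 and at 172, 155 and 195 CPM in Cre 1, 2 and 3. Every Cre library lay above every flox library, but the difference, 0.57 ± 0.19 on the log2 scale, missed the threshold (edgeR adjusted p = 0.0842). It passed in DESeq2 (adjusted p = 0.0446) and without flox 3 (log2 fold change 0.79, edgeR adjusted p = 0.00581). Mdm4, the Mdm2 relative that masks p53, was at -0.11 ± 0.10 (edgeR adjusted p = 0.455) and at 0.04 with library totals.

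Of 23 listed genes for p53 and its regulators, 21 were tested, 3 rose and 0 fell, with a median log2 fold change of 0.16. The share that rose was 14.3%, against 6.35% of all tested genes. The kinase Atm, which signals double-strand breaks, rose from 52.1 ± 3.49 to 96.1 ± 10.5 CPM (log2 fold change 0.88 ± 0.12). Chek1, the S-phase checkpoint kinase, rose from 3.99 ± 0.397 to 14.1 ± 4.23 CPM (1.82 ± 0.27). Trp53bp1, the break-site scaffold 53BP1 whose exons overlap those of Tubgcp4, rose from 49.7 ± 3.60 to 69.99 ± 6.55 CPM (0.49 ± 0.11). Their edgeR adjusted p values were 0.0237, 0.0237 and 0.0367. Without flox 1, flox 2, Cre 1 or Cre 2 they ran from 0.0658 to 0.135, and without Cre 3 Trp53bp1 missed at 0.0506.

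Of 32 further targets, 31 were in the table and tested, and 1 rose and 2 fell, Plk3 and Cdkn1a. These shares, 3.23% higher and 6.45% lower, were below the 6.35% and 8.94% of all tested genes. The median log2 fold change of the 31 was 0.08 (0.24 with library totals, which move the median of all tested genes from 0.01 to 0.17). Plk3, a stress-responsive polo-like kinase overlapped by exons of Tctex1d4, fell from 38.2 ± 2.73 to 21.1 ± 2.60 CPM (log2 fold change -0.86 ± 0.13, edgeR adjusted p = 0.0237). Ddit4, the mTORC1 inhibitor REDD1, rose from 34.4 ± 3.54 to 61.1 ± 7.02 CPM (0.83 ± 0.13, edgeR adjusted p = 0.0241). Sesn1 and Ddit4, both inhibitors of mTORC1, thus moved in opposite directions, Sesn1 down and Ddit4 up. Without flox 1, flox 2, Cre 1 or Cre 2 the adjusted p of Plk3 and Ddit4 ran from 0.0677 to 0.107.

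Cdkn1a stood at 494, 505 and 529 CPM in flox 1, 2 and 3 and at 326, 411 and 305 CPM in Cre 1, 2 and 3. Every Cre library lay below every flox library, and the log2 fold change was -0.55 ± 0.14 (edgeR adjusted p = 0.0452). This call was lost in 12 of 16 alternatives, among them limma-voom (adjusted p = 0.0507), library totals (log2 fold change -0.40, edgeR adjusted p = 0.118) and each library left out but flox 3 (edgeR adjusted p from 0.0824 to 0.189). Exons of a gene on the opposite strand overlap those of Cdkn1a.

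Of 15 genes of the BCL-2 family, through which Pmaip1, Bbc3 and Bax act, 14 were tested, 3 fell and 0 rose, with a median log2 fold change of -0.49. The share that fell was 21.4%, against 8.94% of all tested genes. Mcl1, the survival protein that Noxa binds, fell from 541 ± 96.8 to 322 ± 15.02 CPM (-0.75 ± 0.15, edgeR adjusted p = 0.0291), so it was lower together with Pmaip1. Counted as separate genes, the A1 survival genes Bcl2a1a and Bcl2a1b, which leukocytes express and whose near-identical copies make their reads uncertain, were at -1.695 ± 0.26 and -2.04 ± 0.49 (edgeR adjusted p of 0.0237 and 0.0403). A further A1 copy in the list, Bcl2a1d, overlapped between the groups and did not pass (-0.65 ± 0.43, edgeR adjusted p = 0.318). Without flox 1, flox 2, Cre 1 or Cre 2 the adjusted p of Mcl1, Bcl2a1a and Bcl2a1b ran from 0.0665 to 0.152. Without Cre 3, Mcl1 missed at 0.0576 and Bcl2a1b at 0.062, and Bcl2a1b also missed in limma-voom at 0.0656.

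**Figure D3:**
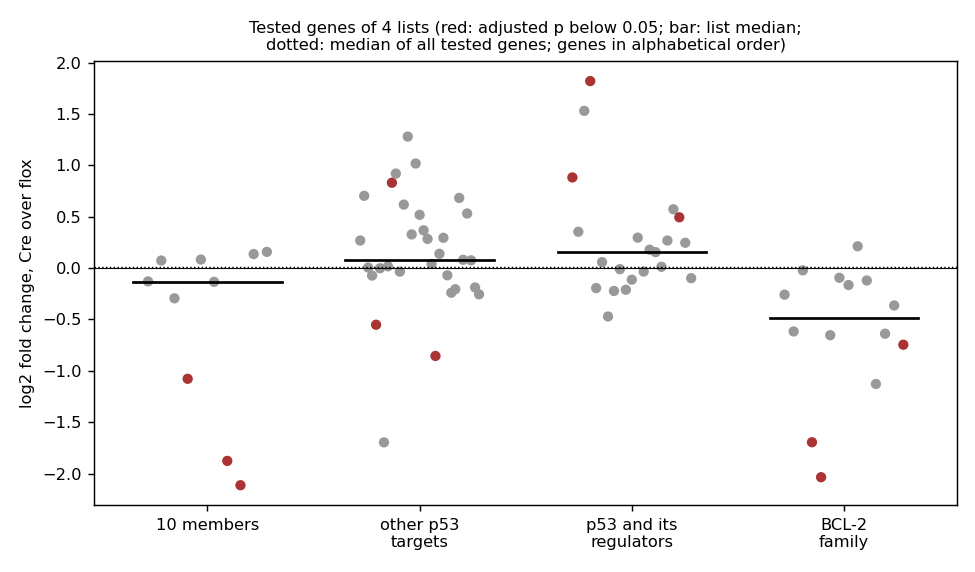
Log2 fold change (Cre over flox, vertical axis) of the tested genes in 4 lists: the 10 members, 31 further p53 targets, 21 genes of p53 and its regulators and 14 genes of the BCL-2 family. Points are genes in alphabetical order within a list, red points have an edgeR adjusted p below 0.05, and black bars are list medians of -0.13, 0.08, 0.16 and -0.49.

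Like the 3 members that fell, the summed macrophage markers were lower in every Cre library than in every flox library. That arrangement was found for 20.0% of the tested genes, and these members were picked because they fell. Within flox, only Sesn1 and Pmaip1 followed the order of the markers. As a share of its own flox mean, Sesn1 stood at 111%, 147% and 42.5% in flox 1, 2 and 3 and at 18.1% to 26.8% in Cre. In the same order the summed macrophage markers stood at 109.8%, 139.6% and 50.6% in the flox libraries. Their Cre values were 16.3% to 21.0%, and both Sesn1 and the markers had flox 2 highest and flox 3 lowest within flox. Pmaip1 stood at 98.5%, 117% and 84.9% in flox and at 21.5% to 34.8% in Cre, with flox 2 highest and flox 3 lowest as well but over a narrower span. Gadd45a showed the opposite order within flox, at 94.5%, 86.4% and 119%, and 45.3% to 50.03% in Cre. In flox 3, where the summed macrophage markers were lowest among the flox libraries, Gadd45a was highest. In every Cre library both Gadd45a and the summed markers lay below every flox library. The part of macrophage RNA in the falls of Sesn1, Pmaip1 and Gadd45a was not tested.

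**Figure D4:**
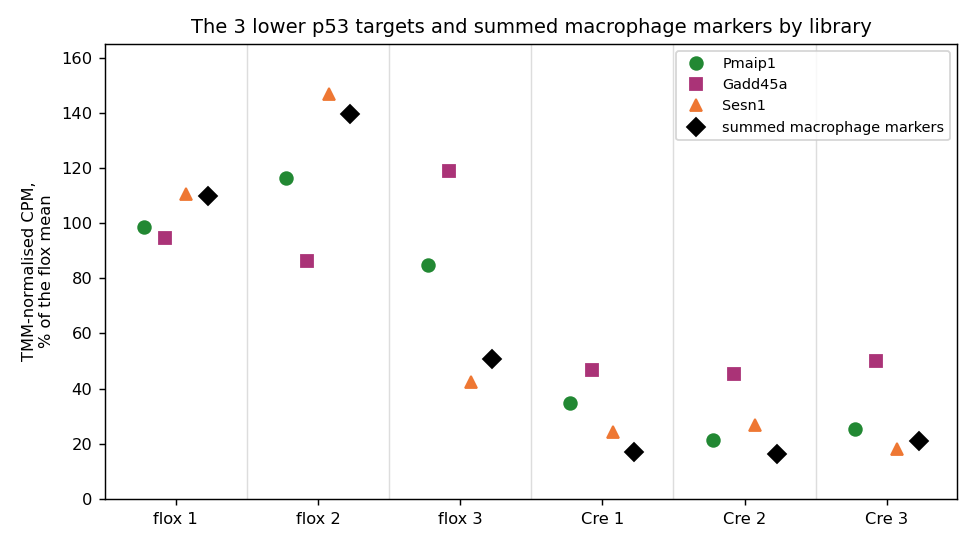
Normalised CPM of Pmaip1, Gadd45a, Sesn1 and the sum of 20 macrophage and Kupffer cell markers in each library, as a percentage of the flox mean of each (vertical axis, linear from 0). In flox 3, Sesn1 (42.5%) and the macrophage sum (50.6%) are low while Pmaip1 (84.9%) and Gadd45a (119%) are not, and in every Cre library all 4 are at or below 50.03%.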

How the data were processed

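Gene expression was measured by RNA sequencing in 6 libraries, 3 per group, grouped and numbered by their titles. One deposited table gives raw counts by gene symbol, and the authors also deposited FPKM, which equal count over library total and gene length (11560 genes checked, 0 departures over 1e-06). Per the submitters' processing notes, builds were GRCm38, mm10 and hg38, with no role given; the sources used here do not give aligner, counter, annotation or strand use. Per the labels' protocols, libraries came from a SMARTER mRNA kit. No per-sample column was left unused.

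Counts were tested with edgeR 4.0.16 (R 4.3.3; filterByExpr with minimum count 10 and total 15, TMM, quasi-likelihood F-test, two-sided, no covariate), adjusted by Benjamini-Hochberg over 14795 genes, with calls below 0.05. Standard errors are the absolute log2 fold change over the square root of F. The alternatives were other size factors, filters, DESeq2 1.42.0, limma 3.58.1 (voom, and trend on log2 FPKM with a pseudocount of 1 or 0.1), a replicate block and each library left out. The within-library ratios and the octamer search were chosen after the values were seen. Methods were tested on simulated data. Every pair of libraries differed by more than sampling noise. Positions and exon overlaps are from GENCODE M21 (GRCm38), by symbol.

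Named genes were all members, Trp53, Cdkn1a and Mdm4, up to 5 called genes of lowest p per list (or 2 where fewer passed), Sesn2, Bcl2a1d and a few markers. The members and lists were chosen with earlier results of these data known.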

Additional observations from a re-analysis of the deposited data

How the results depend on the processing

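The 3 members that fell stayed lower in all 16 alternatives, and 3 were called with RLE size factors, library totals, DESeq2, either other count filter, the 3 fits of limma-trend on FPKM and without flox 3. Limma-voom called 2. Leaving out 1 library gave 0 to 3 members lower, 0 to 5329 genes over all, 0 to 8 further p53 targets higher and 0 to 3 lower, and a median for those targets of 0.058 to 0.22. The fits without flox 1, flox 2, Cre 1 or Cre 2 called 0 genes in edgeR, with 3562 to 3978 at an unadjusted p below 0.05. Same-numbered libraries did not deviate together (correlations of -0.03, -0.10 and -0.06), so the numbers were not taken as pairs. The replicate block called 0 genes, 0 members and 0 further targets in either direction (4296 genes at an unadjusted p below 0.05), with an adjusted p of 0.0736 for Pmaip1 and Gadd45a and 0.0742 for Sesn1. Over all genes DESeq2 called 4334 and limma-voom 1404, against 2263. Further targets higher numbered 2 with library totals, 3 in DESeq2, 2 with at least 1 CPM, 2 on log2(FPKM + 1), 3 on log2(FPKM + 0.1) and 3 at a mean FPKM of at least 1. Further targets lower numbered 1 with library totals, in limma-voom and in each FPKM fit. Their median was 0.24 with library totals and 0.25, 0.29 and 0.25 in the FPKM fits, which moved the median of all genes from 0.01 to 0.17, 0.10, 0.16 and 0.14. The share of calls that were higher was 41.5%, against 57.03% with library totals, 58.4%, 57.7% and 59.6% in the FPKM fits and 56.3% without Cre 3. Signs turned for Bax (0.021 with library totals, 0.033 in each FPKM fit), Mdm2 (0.018 with library totals, then 0.023, 0.024 and 0.023) and Mdm4 (0.040 with library totals, then 0.042, 0.045 and 0.042). With 1 library left out they also turned for Bbc3 (-0.041 without flox 1 and -0.0073 without Cre 3, up to 0.29 without flox 3) and Gadd45b (-0.055 without flox 1, -0.12 without flox 2 and -0.10 without Cre 3, up to 0.52 without flox 3). The same held for Trp53inp1 (-0.097 without flox 1 and -0.15 without Cre 2, up to 0.48 without flox 3) and Pdgfrb (-0.096 without Cre 3, up to 0.88 without flox 1). The causes were not tested. Bbc3, at 417 to 679 counts per library, was the member with the fewest flox counts, and its interval does not exclude a change of 0.43 down or 0.58 up.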

Other observations

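Genes of the dividing cell, many of which fall when p53 and p21 are active, were higher in the Cre libraries. Of 25 such genes 23 rose and 0 fell, with a median log2 fold change of 1.62, against 6.35% of all tested genes that rose. Their summed CPM was 672 to 867 in flox and 2068, 1872 and 1224 in Cre 1, 2 and 3, so Cre 3 stood nearest to flox. The summed mesothelial markers were also lowest in Cre 3 among the Cre libraries (834, 980 and 341 CPM in Cre 1, 2 and 3, 219 to 365 in flox), and the summed macrophage markers were 2921 to 3758 CPM in Cre against 9059 to 24974 in flox. The part of these cells in the rise was not tested, nor was a link of the rise to p53 or p21. The cyclin Ccna2, whose exons overlap those of Exosc9, rose from 11.5 ± 1.26 to 45.5 ± 18.5 CPM (log2 fold change 1.98 ± 0.33), and the mitotic transcription factor Foxm1 from 9.15 ± 1.34 to 33.7 ± 13.02 CPM (1.88 ± 0.33). The replication licensing genes Mcm4, Mcm5 and Mcm2 rose by 1.27 ± 0.17, 1.32 ± 0.22 and 1.04 ± 0.19, and for these 5 genes the adjusted p in edgeR lay between 0.0237 and 0.025. Without flox 1, flox 2, Cre 1 or Cre 2, 0 genes of the whole table passed in edgeR, with 3562 to 3978 at an unadjusted p below 0.05 (5150 with all libraries).

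Of 18 immediate early genes, the class to which Gadd45b is often assigned, 2 fell and 0 rose. The share that fell, 11.1%, was near the 8.94% of all tested genes. The median log2 fold change of the 18 was -0.40, against 0.01 over all tested genes. In 8 of the 18 every Cre library lay below every flox library, an arrangement found for 20.0% of all tested genes. Jun fell from 254 ± 8.69 to 149.9 ± 10.8 CPM (log2 fold change -0.76 ± 0.10, edgeR adjusted p = 0.0237) and Fos from 25.0 ± 10.2 to 8.92 ± 1.20 CPM (-1.49 ± 0.34, edgeR adjusted p = 0.0353, missed in limma-voom at 0.0747 and in edgeR without Cre 3 at 0.074). Exons of Junos overlap those of Jun. Among 7 tested relatives of the members, 0 passed in edgeR: those of lowest p were Ccng2, the cyclin G1 relative, at 0.50 ± 0.23, and Trp53inp2 at -0.19 ± 0.09, both with an adjusted p of 0.177.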
